A study of Bos taurus with 9 samples.

Results

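HOXB3-OT1 (transcript TCONS_00059313) is a lncRNA assembled from the reads of bovine mammary epithelial cells and filed under the homeobox gene HOXB3. It was chosen by its measured FPKM, which was higher the longer these same cells had been exposed to LPS over the 9 libraries, so its own differences between time points are given as a description with no test. It is 1 of 2257 lncRNA transcripts in the deposited table. It is set beside the 7 other lncRNA transcripts within 500 kb on chromosome 19 and beside the 1 other transcript with a HOX name, HOXC6-OT1. These 8 were taken by position or by name, so differences could be tested for those of them that were abundant enough. The cells were MAC-T, an immortalized bovine line of mammary epithelial origin (called bMEC in the labels). They were collected untreated (0 h), or after 6 h (6 hpi) or 12 h (12 hpi) in medium with LPS, a cell wall component of Gram-negative bacteria, at 50 ng/μL. Each time point has 3 libraries and had a plate of its own, so a difference between plates and a difference between times cannot be told apart. The study describes no untreated plate at 6 h or 12 h. An effect of LPS therefore cannot be told apart from one of the hours in culture. The study names biological replicates for its qRT-PCR. Whether the 3 sequenced libraries of a time point came from separate wells of the plate is not stated, so an SD may hold technical spread only.

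HOX genes encode homeodomain transcription factors that give cells their position along the body axis, and they lie in clusters whose gene order follows that axis. HOXB3 belongs to the HOXB cluster and is known for patterning the hindbrain and for its part in blood cell precursors. HOX clusters also give rise to many non-coding RNAs, of which HOTAIR of the HOXC cluster is a well known human example. Several HOX genes are active in mammary epithelium.

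The table holds lncRNAs alone, so the mRNA of HOXB3 and the markers of the cell type were not analysed here. Marker genes could be looked for only among the 727 of 2257 transcripts to which a host symbol could be given. Among these, RUNX1 was the only one of 16 markers of mammary epithelium found (5 transcripts), and none of the 11 mesenchymal and 8 leukocyte markers was found, so the cell type could not be checked. The number of fragments behind a value is not given either, which leaves the counting error of each FPKM unknown. The study did report mapped reads per library, and every 0 h library had more of them than every LPS library. How this difference in depth bears on low values was not tested. At 0 h, replicates 1 and 2 differed from replicate 3. By the study's sequencing summary, replicates 1 and 2 had the lowest shares of mapped reads and of high-quality bases of all libraries. Replicate 3 lay within the range of the LPS libraries in both. What this difference does to the values was not tested either. Of the 1948 lncRNAs tested, replicate 3 was the untreated library nearest to the mean of the 6 LPS libraries for 925 (47.5%), against 498 for replicate 1 and 525 for replicate 2. Values without it are given where it decides a result.

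HOXB3-OT1 spans 30925 bp of chromosome 19, from 37887710 to 37918634 of ARS-UCD1.2. In the RefSeq annotation of another assembly, ARS-UCD2.0, which was used for gene order only, chromosome 19 carries 10 HOXB genes, running from HOXB13 and HOXB9 through HOXB8, HOXB7, HOXB3, HOXB6, HOXB5 and HOXB4 to HOXB2 and HOXB1 by their first bases. Its exons, strand and sequence were not used here. Reads of HOXB3 mRNA that fall within it cannot be told apart from its own in these values.

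**Figure D1:**
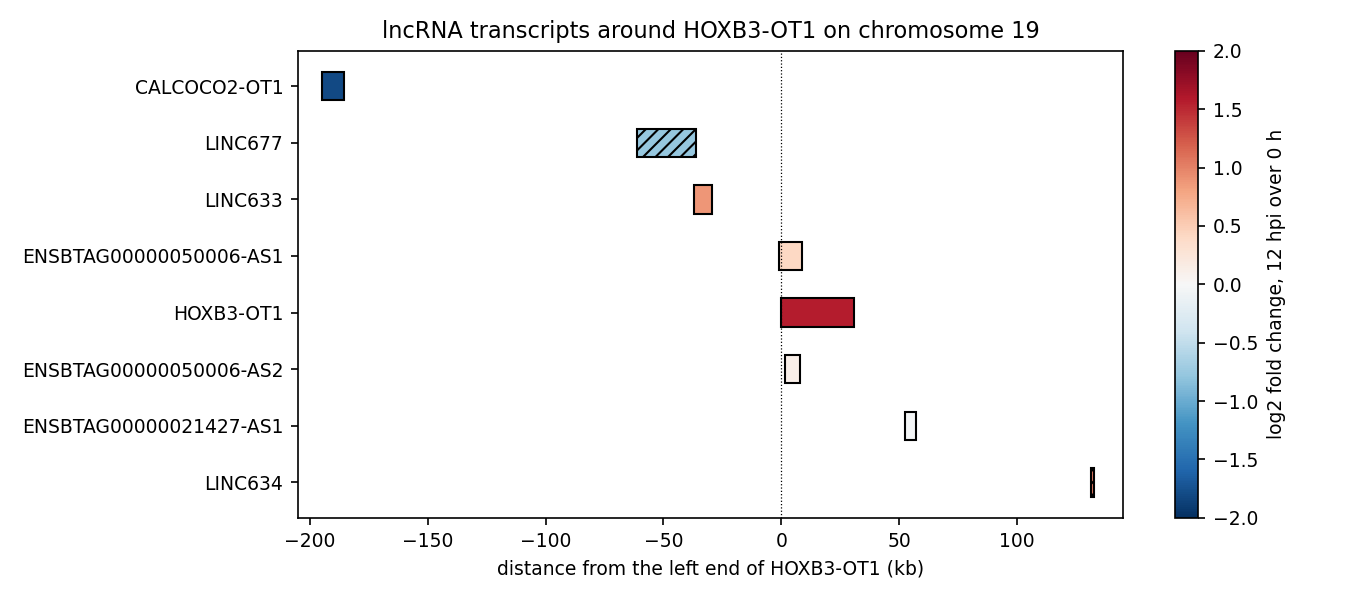
Position of the 8 lncRNA transcripts of the window, in kb from the left end of HOXB3-OT1, coloured by the log2 fold change of 12 hpi over 0 h (red higher, blue lower at 12 hpi). Hatched bars mark LINC677 and LINC634, which were too low to be tested and whose colour comes from the fit without a filter. HOXB3-OT1 is the deepest red at 1.58, CALCOCO2-OT1 at the far left is the deepest blue at −1.80, and the antisense transcripts that overlap HOXB3-OT1 or lie to its right are pale.

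HOXB3-OT1 was detected in every library, and its level was higher at each later time point. It had 4.12, 3.11 and 5.79 FPKM at 0 h, 7.66, 5.88 and 7.49 FPKM at 6 hpi, and 12.7, 12.0 and 13.6 FPKM at 12 hpi. The means were 4.34 ± 1.35, 7.01 ± 0.984 and 12.8 ± 0.824 FPKM (SD, n = 3 each), and the ranges of the 3 time points did not overlap. At 12 hpi the lowest library lay 6.20 FPKM above the highest at 0 h and 4.32 FPKM above the highest at 6 hpi. Between 6 hpi and 0 h the ranges were only 0.0936 FPKM apart, with replicate 2 of 6 hpi next to replicate 3 of 0 h. The order of 12 hpi above both other time points thus exceeded the spread between libraries, while that of 6 hpi above 0 h rested on a margin smaller than either SD.

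The mean FPKM of HOXB3-OT1 at 12 hpi was 2.94 times that at 0 h, and over the 9 pairs of libraries the ratio ran from 2.07 to 4.38. Between 12 and 6 hpi the ratio of means was 1.82 (1.56 to 2.32 over pairs), and between 6 hpi and 0 h it was 1.62 (1.02 to 2.46 over pairs). On the log2(FPKM + 0.1) scale these were differences of 1.58, 0.86 and 0.71, each with a standard error of 0.24. Without replicate 3 of 0 h the difference between 12 hpi and 0 h was 1.80 and that between 6 hpi and 0 h was 0.94. With replicate 3 as the only untreated library they were 1.13 and 0.26. The direction was the same in each case, and the size of the change at 6 hpi depended on which untreated libraries were used.

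**Figure D2:**
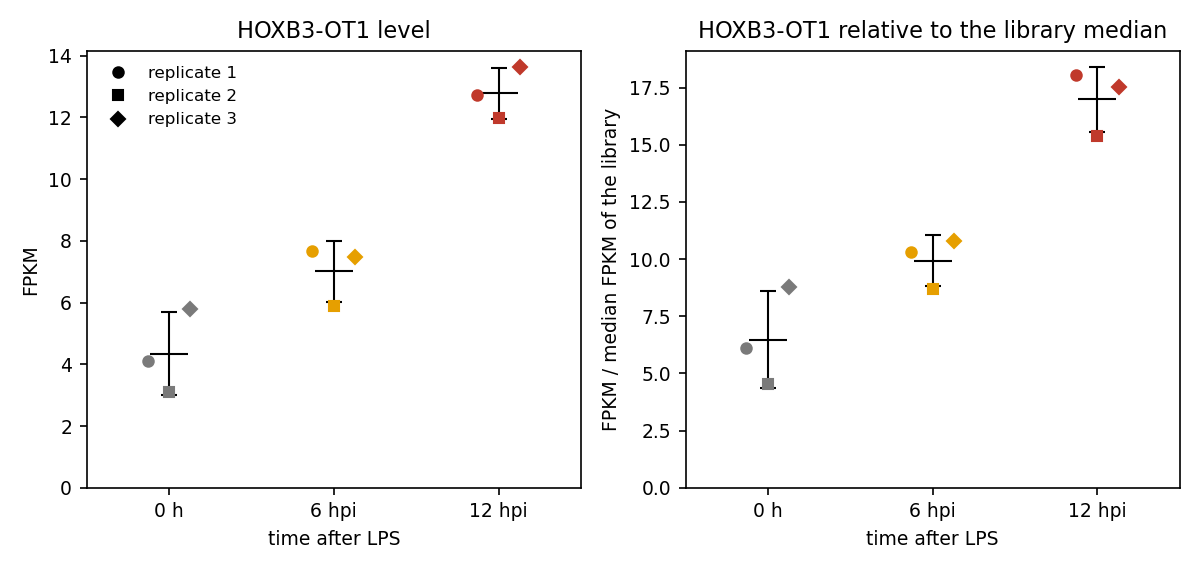
HOXB3-OT1 in the 9 libraries by time after LPS, as FPKM (left) and as FPKM divided by the median FPKM of all lncRNAs of the library (right). Points are libraries, marked by replicate, and horizontal lines with bars are means and SD of 3 libraries. At 12 hpi all 3 libraries lie above those of 0 h and 6 hpi on both scales, and on the right replicate 2 of 6 hpi (8.70) falls just under replicate 3 of 0 h (8.76).

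Measures taken within each library differed in which time points they separated. Relative to the median lncRNA of its library, HOXB3-OT1 stood at 4.56 to 8.76 times in the untreated libraries, 8.70 to 10.8 times in those of 6 hpi and 15.4 to 18.1 times in those of 12 hpi. By this measure 12 hpi was apart from the other time points, and 6 hpi and 0 h overlapped. Its rank among all lncRNAs, counted from the most abundant, lay between 107 and 201 at 0 h, between 79 and 107 at 6 hpi, and between 46 and 48 at 12 hpi, with 107 both in a library of 0 h and in one of 6 hpi. Among the 845 sense overlapping lncRNAs the rank lay between 47 and 75 at 0 h and between 28 and 40 at 6 hpi, and was 19 in all 3 libraries of 12 hpi, so that all 3 time points were apart. Among the 132 lncRNAs of chromosome 19 it lay between 9 and 14 at 0 h, between 6 and 12 at 6 hpi, and at 4 or 5 at 12 hpi, where 6 hpi and 0 h overlapped. Its share of the summed FPKM of the 8 window transcripts lay between 30.4% and 53.6% at 0 h, between 59.2% and 67.7% at 6 hpi, and between 66.9% and 77.7% at 12 hpi. This share set 0 h apart from both LPS time points, which overlapped with each other. It depends on the other window transcripts as well. Their sum was 5.005 to 7.129 FPKM at 0 h, 3.576 to 4.059 FPKM at 6 hpi and 3.654 to 6.739 FPKM at 12 hpi. The lower sum at 6 hpi thus raised the share there, apart from any change in HOXB3-OT1. HOXB3-OT1 was among the more abundant lncRNAs in untreated cells already, and ranked higher still at 12 hpi.

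A pair of transcripts antisense to ENSBTAG00000050006, a gene with no symbol in the files, overlap HOXB3-OT1. ENSBTAG00000050006-AS1 (37886712 to 37896618) shares 8909 bp with it, and ENSBTAG00000050006-AS2 (37889426 to 37895516) lies inside it. Their summed level was 1.85, 1.67 and 1.25 FPKM at 0 h, 1.55, 1.35 and 1.57 FPKM at 6 hpi, and 1.44, 2.14 and 2.36 FPKM at 12 hpi. The ratio of HOXB3-OT1 to this sum was between 1.87 and 4.62 at 0 h, between 4.36 and 4.95 at 6 hpi, and between 5.60 and 8.84 at 12 hpi. Within a library the balance between HOXB3-OT1 and the antisense pair was thus shifted to HOXB3-OT1 at 12 hpi in every library, while 6 hpi and 0 h overlapped. The libraries were stranded by the study's methods, but how strand was used in quantification is not stated, so reads of overlapping transcripts may have been assigned in part to the wrong one.

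The antisense transcripts did not pass the thresholds in any comparison. The thresholds are those of the study, a log2 fold change beyond ±1 together with p under 0.05 before adjustment, applied here to a limma fit of all 1948 tested lncRNAs. ENSBTAG00000050006-AS1 had 0.761, 0.833 and 0.703 FPKM at 0 h, 0.703, 0.881 and 0.919 FPKM at 6 hpi, and 0.703, 1.11 and 1.47 FPKM at 12 hpi. Its log2 fold change of 12 hpi over 0 h was 0.41 (standard error 0.31, limma adjusted p = 0.559), and that of 6 hpi over 0 h was 0.11 (adjusted p = 0.927). ENSBTAG00000050006-AS2 had 1.09, 0.832 and 0.549 FPKM at 0 h, 0.844, 0.468 and 0.646 FPKM at 6 hpi, and 0.736, 1.03 and 0.888 FPKM at 12 hpi. Its log2 fold change was 0.12 at 12 hpi over 0 h (standard error 0.33, limma adjusted p = 0.883). The time points overlapped for both transcripts.

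ENSBTAG00000021427-AS1 (TCONS_00063177, 37940062 to 37944922) is named as antisense to HOXB3 itself and lies 21.4 kb from HOXB3-OT1. It had 1.02, 1.18 and 1.36 FPKM at 0 h, 0.874, 1.06 and 1.04 FPKM at 6 hpi, and 0.694, 1.30 and 1.60 FPKM at 12 hpi. The lowest and the highest value of all 9 libraries were both at 12 hpi. Its log2 fold change of 12 hpi over 0 h was −0.04 (standard error 0.32, limma adjusted p = 0.961), against a median of 0.11 over all tested lncRNAs. An antisense transcript named after the same gene thus had no difference beyond the spread between libraries where HOXB3-OT1 was near 3 times its untreated level.

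To the left of HOXB3-OT1, CALCOCO2-OT1 was lower after LPS. It overlaps CALCOCO2, the gene of an autophagy receptor that in human cells marks bacteria in the cytosol for degradation. It lies at 37692852 to 37702127, 186 kb from HOXB3-OT1. Its level was 2.78, 3.28 and 1.09 FPKM at 0 h, 0.680, 0.768 and 0.354 FPKM at 6 hpi, and 0.332, 0.848 and 0.566 FPKM at 12 hpi. All 6 LPS libraries lay below the 3 untreated ones, with replicate 3 of 0 h closest to them.

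CALCOCO2-OT1 met the thresholds at 6 hpi over 0 h (log2 fold change −1.75, standard error 0.48, limma unadjusted p = 0.00547, adjusted p = 0.337). It met them at 12 hpi over 0 h as well (−1.80, standard error 0.48, limma unadjusted p = 0.00455, adjusted p = 0.189). Between 12 and 6 hpi its log2 fold change was −0.06 (limma adjusted p = 0.975). Without replicate 3 of 0 h the fold changes were −2.21 and −2.27. With replicate 3 as the only untreated library they were −0.82 and −0.88, and neither met the thresholds. The 2 comparisons with 0 h share the untreated libraries and are not independent of each other.

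LINC633 (37850672 to 37858075), an intergenic lncRNA 29.6 kb from HOXB3-OT1, had the highest values at 12 hpi. It had 0.292, 0.225 and 0.467 FPKM at 0 h, 0.319, 0.290 and 0.533 FPKM at 6 hpi, and 0.565, 0.819 and 0.633 FPKM at 12 hpi. The 12 hpi libraries lay above all others, by a small margin over replicate 3 of 6 hpi. Its log2 fold change was 0.88 at 12 hpi over 0 h (standard error 0.39, limma unadjusted p = 0.051, adjusted p = 0.355) and 0.17 at 6 hpi over 0 h (adjusted p = 0.897), so it did not meet the thresholds. Without replicate 3 of 0 h it did at 12 hpi over 0 h (1.10, limma unadjusted p = 0.0352). LINC633 passed the filter (above 0.5 FPKM in at least 3 libraries) only through its 12 hpi libraries, as no 0 h library exceeded 0.5 FPKM. Its p-values for 12 hpi over 0 h are thus not independent of the filter, and they decide nothing about a rise.

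LINC677 (37826453 to 37851701), which overlaps the locus of LINC633, and LINC634 (38018827 to 38020153) exceeded 0.5 FPKM in only 2 and 1 libraries and were not tested. LINC677 had 0.741, 0.596 and 0.405 FPKM at 0 h, 0.191, 0.312 and 0.0873 FPKM at 6 hpi, and 0.167, 0.400 and 0.339 FPKM at 12 hpi. All its LPS values were below the untreated ones, replicate 2 of 12 hpi by very little. In a fit without the filter it met the thresholds at 6 hpi over 0 h (log2 fold change −1.24, limma unadjusted p = 0.0303, adjusted p = 0.488) and not at 12 hpi over 0 h (−0.78, adjusted p = 0.483). LINC634 had 0.155, 0.191 and 0.432 FPKM at 0 h, 0.181, 0.282 and 0 FPKM at 6 hpi, and 0.457, 0.367 and 1.24 FPKM at 12 hpi. Its 12 hpi values were above those of 6 hpi, and in that fit its log2 fold change of 12 over 6 hpi met the thresholds at 1.67 (limma unadjusted p = 0.0332, adjusted p = 0.542). Of all 2257 lncRNAs in that fit, 163 met the thresholds at 6 hpi over 0 h and 142 at 12 over 6 hpi.

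**Figure D3:**
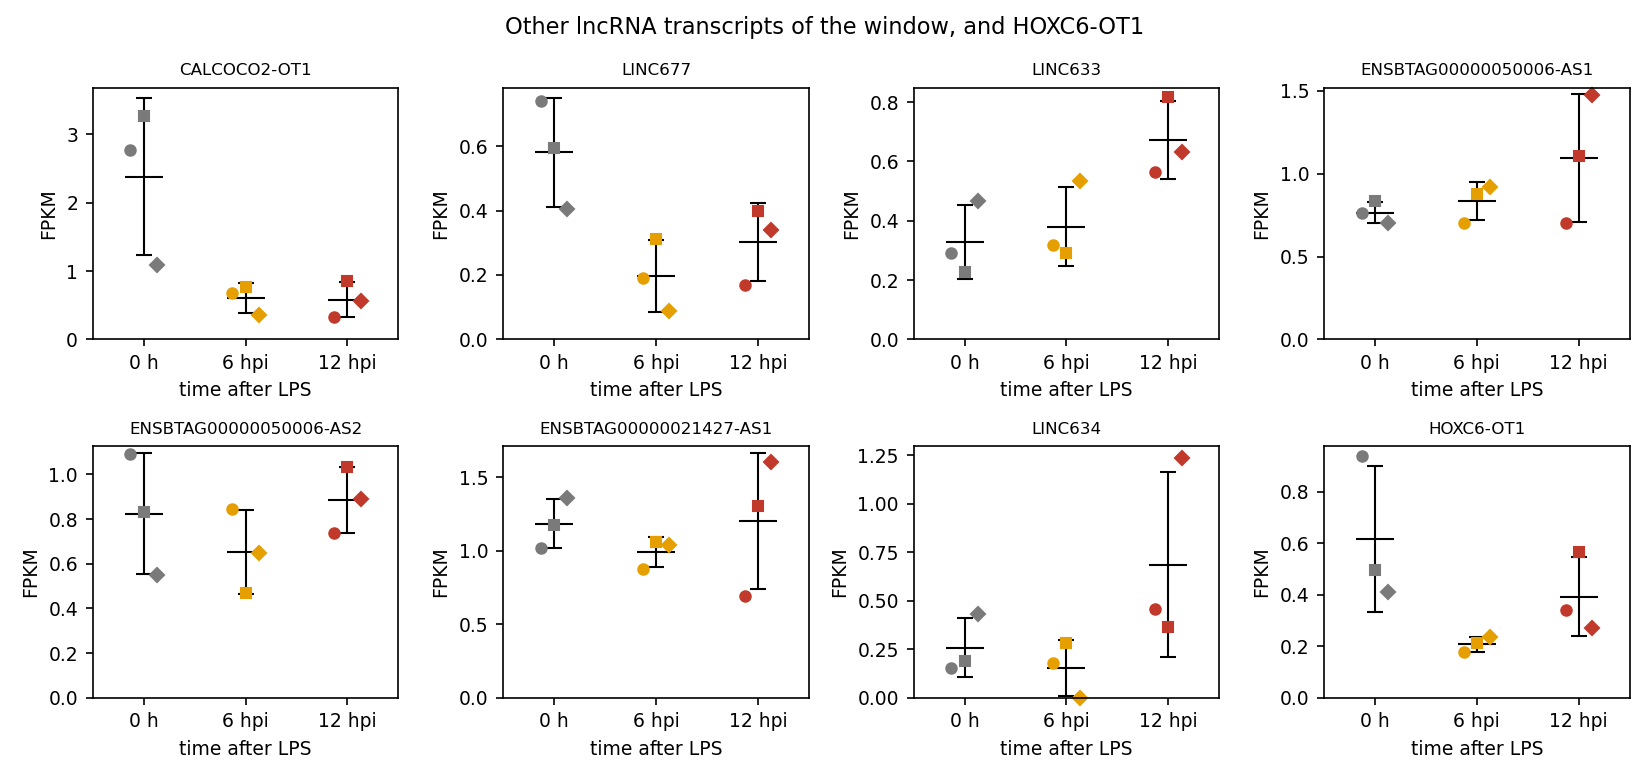
FPKM of the 7 other lncRNA transcripts of the window and of HOXC6-OT1 by time after LPS, each panel with its own axis from 0. Points are libraries (circle, square and diamond for replicates 1, 2 and 3), and horizontal lines with bars are means and SD of 3 libraries. CALCOCO2-OT1 and LINC677 lie lower at 6 and 12 hpi than at 0 h, LINC633 lies highest at 12 hpi, and the 3 antisense transcripts overlap between time points.

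Of the 5 window transcripts tested, 1 met the thresholds at 6 hpi over 0 h and 1 at 12 hpi over 0 h, CALCOCO2-OT1 in both cases, and 0 did between 12 and 6 hpi. Over all tested lncRNAs 6.06%, 9.6% and 5.39% met them in these 3 comparisons. Values of the window transcripts that did not overlap between time points were found for 1, 2 and 1 of the 5, against 16.6%, 22.6% and 15.1% of all tested lncRNAs. LINC633 is among those at 12 hpi over 0 h and is the one at 12 over 6 hpi. It passed the filter only through its 12 hpi libraries, so its part in these counts is not independent of the filter. The median log2 fold change of the 5 was −0.23 at 6 hpi over 0 h, 0.12 at 12 hpi over 0 h and 0.31 at 12 over 6 hpi, beside 0.05, 0.11 and 0.07 over all tested lncRNAs. With 5 transcripts, 1 call is too few to set the window apart from the table. At an adjusted p of 0.05, limma called 0 lncRNAs in each of the 3 comparisons, and 191, 276 and 157 were under 0.05 before adjustment. Without replicate 3 of 0 h the adjusted calls were 11 at 6 hpi over 0 h and 31 at 12 hpi over 0 h, and with a pseudocount of 1 there were 6 at 12 hpi over 0 h.

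**Figure D4:**
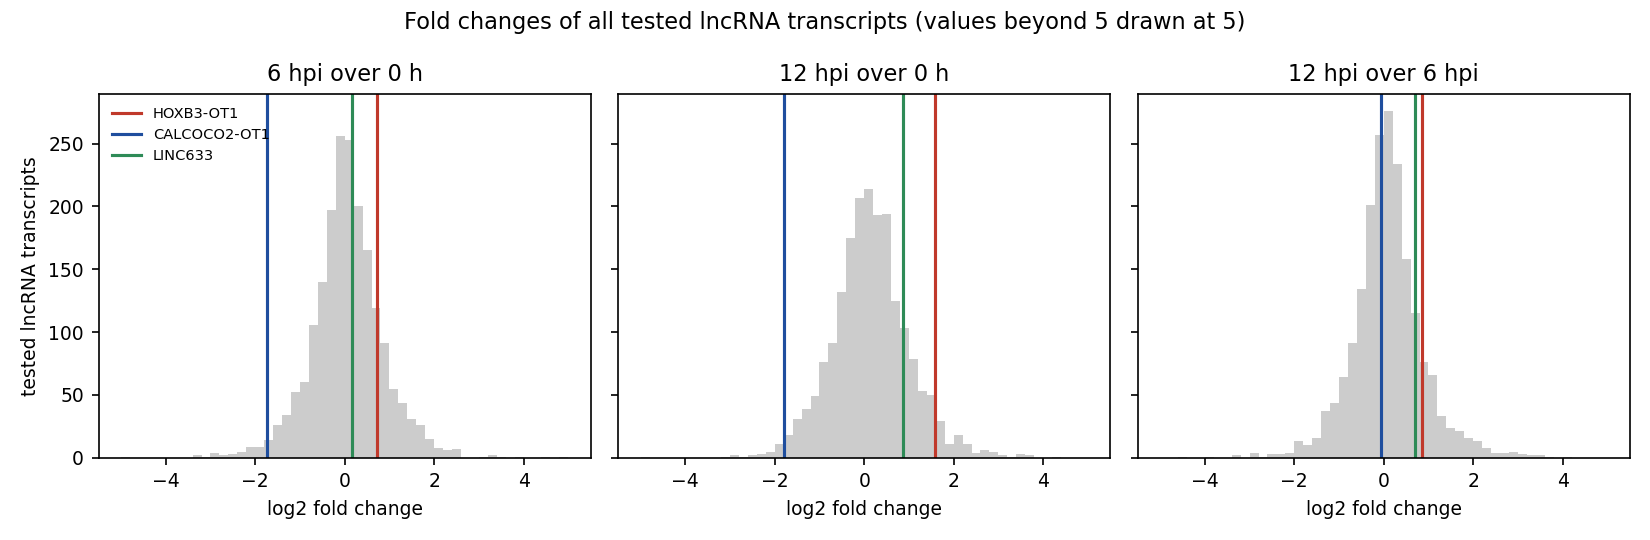
Distribution of the log2 fold changes of the 1948 tested lncRNAs (grey, in bins of the log2(FPKM + 0.1) scale) in the 3 comparisons, with vertical lines at HOXB3-OT1, CALCOCO2-OT1 and LINC633 and values beyond 5 drawn at 5. HOXB3-OT1 lies to the right of the bulk of lncRNAs at 12 hpi over 0 h (1.58) and nearer to it in the other comparisons (0.71 and 0.86), while CALCOCO2-OT1 lies at the left in both comparisons with 0 h.

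By size of change HOXB3-OT1 was not extreme among the tested lncRNAs, and by order it was among few. At 12 hpi over 0 h 4.88% of them had a larger log2 fold change, at 12 over 6 hpi 12.9% and at 6 hpi over 0 h 17.6%. Values that were apart for all 3 time points, lowest at 0 h and highest at 12 hpi, were found for 8 of the 1948 (0.411%), HOXB3-OT1 included. The other 7 were ENSBTAT00000081465, LINC29, NPC1-OT1, ENSBTAG00000048256-OT1, LINC172, LINC67 and LINC694, with log2 fold changes of 12 hpi over 0 h between 0.61 and 1.45. HOXB3-OT1 had the largest fold change of the 8 and the highest mean, 8.04 FPKM over the 9 libraries, against 0.458 to 2.15 FPKM for the others. LINC694 is the only other of the 8 on chromosome 19, at 58668022 to 58690941. Since HOXB3-OT1 was chosen for its rise, these shares describe it and test nothing.

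HOXC6-OT1 (TCONS_00126133, chromosome 5, 26008386 to 26016051) overlaps HOXC6, a homeobox gene of the HOXC cluster, and its values did not follow those of HOXB3-OT1. It had 0.940, 0.498 and 0.410 FPKM at 0 h, 0.177, 0.212 and 0.235 FPKM at 6 hpi, and 0.340, 0.567 and 0.271 FPKM at 12 hpi. The 6 hpi libraries were the lowest of all 9, and 12 hpi overlapped 0 h. It exceeded 0.5 FPKM in 2 libraries and was not among those tested. In the fit without a filter its log2 fold change was −1.15 at 6 hpi over 0 h (limma unadjusted p = 0.0266, adjusted p = 0.488) and −0.51 at 12 hpi over 0 h (adjusted p = 0.596).

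Few lncRNAs could be assigned to the listed genes that work with or upstream of HOX genes. A host symbol could be given to 727 of the 2257 transcripts, and the others could not be matched to a list. None of the 9 listed genes of HOX cofactors (the PBX, MEIS and PKNOX families) hosted a lncRNA among those 727. Nor did the 17 of retinoic acid signalling, an input of HOX genes in the embryo, or the 32 listed for Polycomb and Trithorax, which keep HOX genes silent or active. The lists are not complete. SCMH1, a Polycomb group gene outside them, has SCMH1-OT1 and SCMH1-OT2. Their log2 fold changes at 6 hpi over 0 h were 1.72 and −1.11 (limma unadjusted p = 0.025 and 0.0534, adjusted p = 0.509 and 0.515). Only SCMH1-OT1 met the thresholds there, as 6.06% of all tested lncRNAs did. The SCMH1 transcripts were looked at after their values were seen, and their other comparisons are not given here. Among other listed homeobox genes only ZFHX3 hosted a lncRNA, and ZFHX3-OT1 did not meet the thresholds (log2 fold change −0.42 at 6 hpi over 0 h and 0.48 at 12 hpi over 0 h, limma adjusted p = 0.803 and 0.695). Of the 5 RUNX1 transcripts of the epithelial markers, 1 higher and 1 lower met the thresholds at 6 hpi over 0 h (6.06% of all tested lncRNAs did in either direction), 1 higher and 0 lower at 12 hpi over 0 h (9.6%), and 1 higher and 1 lower at 12 over 6 hpi (5.39%). ZFHX3-OT1 had 0.676, 0.508 and 0.345 FPKM at 0 h, 0.669, 0.377 and 0.139 FPKM at 6 hpi, and 0.419, 1.21 and 0.741 FPKM at 12 hpi.

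The transcripts with the profile nearest to that of HOXB3-OT1 lay elsewhere in the genome. Nearness was measured over the 9 libraries as the root mean square difference of log2(FPKM + 0.1), each transcript centred on its own mean. For comparison, a flat profile differs from HOXB3-OT1 by 0.686 and the median tested lncRNA by 0.898. The 5 nearest were ENSBTAG00000054344-AS1 on the unplaced scaffold NKLS02002134.1 (0.276), ENSBTAG00000048256-OT1 on chromosome 26 (0.312), RIPOR2-OT1 (0.312) and ENSBTAG00000052382-AS1 (0.314), both on chromosome 23, and LINC602 on chromosome 18 (0.318). Among the window transcripts LINC633 was the nearest, 21st of 1947 at 0.366, and CALCOCO2-OT1 the farthest, at 1.60. The antisense transcripts of the window were between 0.603 and 0.750, about as far as a flat profile.

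ENSBTAG00000054344-AS1 had 6.11, 5.64 and 12.9 FPKM at 0 h, 11.8, 13.5 and 17.3 FPKM at 6 hpi, and 29.9, 17.6 and 22.7 FPKM at 12 hpi. In it, as in HOXB3-OT1, the 12 hpi libraries were the highest and replicate 3 was the highest of 0 h. ENSBTAG00000052382-AS1 was far more abundant, with 89.5, 73.8 and 200.4 FPKM at 0 h, 172.7, 209.3 and 224.8 FPKM at 6 hpi, and 311.7, 225.6 and 269.6 FPKM at 12 hpi. For all 5 the values at 12 hpi were apart from those at 0 h, as for 22.6% of all tested lncRNAs, which follows in large part from choosing them by likeness to HOXB3-OT1. With a pseudocount of 1 only 1 of the 5 was again among the 5 nearest, and with Pearson's r as the measure 2 were, so which lncRNAs are nearest depends on the measure.

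**Figure D5:**
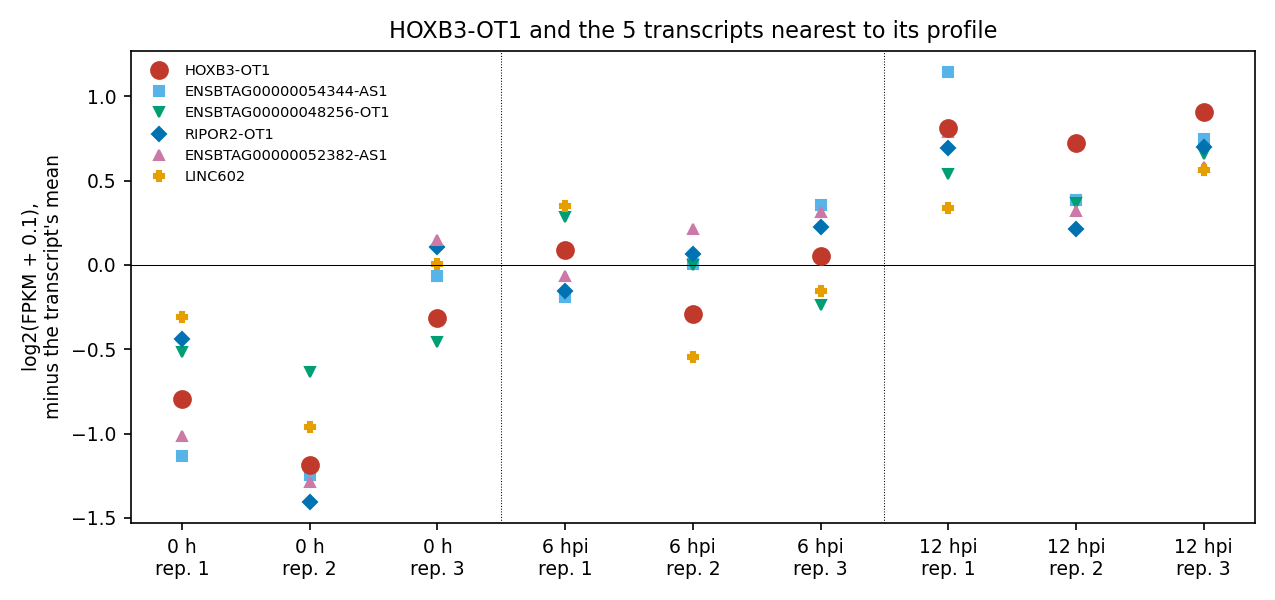
Level of HOXB3-OT1 (large red points) and of the 5 nearest transcripts in each library, as log2(FPKM + 0.1) minus the mean of the transcript over the 9 libraries. Most points lie lowest in replicates 1 and 2 of 0 h and highest at 12 hpi, and replicate 3 of 0 h lies above the other untreated libraries for each transcript.

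Replicate 3 of 0 h was the untreated library nearest to the mean of the LPS libraries for HOXB3-OT1 and for 4 of the 7 other window transcripts, CALCOCO2-OT1, LINC677, LINC633 and LINC634. It was not so for the 3 antisense transcripts. That is 5 of 8 (62.5%), beside 47.5% of all tested lncRNAs. LINC677 and LINC634 were not tested and HOXB3-OT1 was chosen for its rise, so these shares are not over like sets. They do not set the window apart. The part of this library in the differences above is shown by the values without it, and why it stands apart was not tested.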

How the data were processed

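RNA of MAC-T cells was sequenced after ribosomal RNA depletion, 3 libraries at each of 3 time points. The authors mapped reads with HISAT2 to ARS-UCD1.2 (per the submitters' notes), merged transcripts, kept multi-exon lncRNAs above an FPKM minimum and without coding potential, and quantified them with StringTie. The deposited FPKM are fragments per kb of transcript, scaled to the mapped fragments of each library. Such values carry no depth, and low ones are the least precise. Cuffdiff 2.1.1 served the authors' own comparisons, which were not used here. A table with all 9 libraries was used, and the 8 single-library tables were equal to it.

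LncRNAs above 0.5 FPKM in at least 3 libraries were fitted as log2(FPKM + 0.1) with limma 3.58.1 (R 4.3.3, mean-variance trend, all 9 libraries in one fit, two-sided), with Benjamini-Hochberg adjustment over the 1948 tested lncRNAs in each comparison. The fit was tested on simulated data. HOXB3-OT1, the lists and the rules were chosen with earlier results of these data known. Named were the window and HOX transcripts, members of the lists at the thresholds and the 5 nearest profiles. The 8 lncRNAs of rising order, the single list member ZFHX3-OT1 and the SCMH1 transcripts were named after their values were seen. Alternatives were pseudocounts, filters, centring, quantile normalization, windows, replicate block, summing per gene and leaving out libraries. CircRNAs, listed by number with no gene or position, and promoter motifs were planned and not analysed here.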

Additional observations from a re-analysis of the deposited data

How the results depend on the processing

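The log2 difference of HOXB3-OT1 stayed positive under each of the 20 alternatives. It was 1.13 to 1.80 at 12 hpi over 0 h, 0.26 to 0.94 at 6 hpi over 0 h and 0.74 to 0.93 at 12 over 6 hpi, and the lowest values of the first pair (1.13 and 0.26) came without 0 h replicates 1 and 2 together. Leaving out single libraries gave 1.37 to 1.80, 0.50 to 0.94 and 0.74 to 0.93. Centring on library medians removes a shift of 0.11 in the median of all lncRNAs at 12 hpi over 0 h and left HOXB3-OT1 at 1.45.

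The count of window transcripts at the thresholds was 0 in both comparisons with 0 h without 0 h replicates 1 and 2 together (CALCOCO2-OT1 at −0.82 and −0.88). Without the filter it was 2 at 6 hpi over 0 h and 1 at 12 over 6 hpi, and HOXC6-OT1 then made 1 other HOX transcript at 6 hpi over 0 h. Over all 2257 lncRNAs, 163 and 142 met the thresholds in these comparisons without the filter. At 12 hpi over 0 h the count of window transcripts was 2 within 1000 kb, where LINC636 was added (1.15, with overlapping values). It was 1 to 2 when single libraries were left out, the 2 without 0 h replicate 3 (LINC633, 1.10). LINC636 and LINC633 passed the filter only through their 12 hpi libraries, so neither addition is independent of it.

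Over all lncRNAs, 118, 187 and 105 met the thresholds at 6 hpi over 0 h, 12 hpi over 0 h and 12 over 6 hpi. With a pseudocount of 0.5 they were 50, 89 and 48, with one of 1 they were 18, 32 and 17, and with a filter at 1 FPKM they were 49, 88 and 37. Without 0 h replicates 1 and 2 together the first pair was 59 and 93. Leaving out single libraries gave 85 to 178 at 6 hpi over 0 h and at most 271 at 12 hpi over 0 h, the 178 and the 271 without 0 h replicate 3, where 11 and 31 had an adjusted p under 0.05 from limma. A pseudocount of 1 gave 6 such lncRNAs at 12 hpi over 0 h, and each other alternative at most 2 per comparison. Of the 187, 124 were higher and 63 lower, against 85 and 90 after centring and 87 and 93 after quantile normalization. Of the 105, 68 were higher and 37 lower, against 53 and 47 and against 52 and 53. The replicate numbers do not pair the libraries (correlations of same-numbered deviations from −0.0754 to 0.0728, and 0 of 9 libraries nearest to its own number throughout). With the replicate block the counts were 115, 181 and 103, and no call of a window transcript changed. Without fragment counts, differences of lncRNAs near 0.5 FPKM are limited by an error that is not known.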

Other observations

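Among the 20 tested lncRNAs nearest in profile to HOXB3-OT1, 3 (15%) have names of histone genes, whose transcripts are made mainly during DNA replication, beside 5 of all 1948 tested (0.257%). On chromosome 23 lie 5 of the 20 (25%), beside 66 of all tested (3.39%), and 2 of the histone lncRNAs are among them. H2AC11-OT1 had 55.2, 47.2 and 106.6 FPKM at 0 h, 104.5, 139.0 and 129.9 FPKM at 6 hpi, and 196.1, 128.9 and 154.0 FPKM at 12 hpi. H4C11-OT3 had 41.8, 38.9 and 105.8 FPKM at 0 h, 92.4, 126.2 and 128.0 FPKM at 6 hpi, and 166.2, 126.7 and 144.6 FPKM at 12 hpi. H2AC19-OT1 had 26.4, 27.3 and 45.8 FPKM at 0 h, 42.9, 50.2 and 51.6 FPKM at 6 hpi, and 87.4, 53.8 and 64.4 FPKM at 12 hpi. In all 3, replicates 1 and 2 of 0 h were the 2 lowest libraries and replicate 3 of 0 h lay within the range of 6 hpi. In HOXB3-OT1 the same 2 libraries were the lowest. The 12 hpi values were above all others in HOXB3-OT1 and H2AC19-OT1, and overlapped those of 6 hpi in H2AC11-OT1 and H4C11-OT3. Neither the histone names nor the cut at 20 were part of the design. H4C11-OT3 was the last of the 20, at 0.366, level with LINC633 in place 21, and which lncRNAs are nearest depends on the measure. The histone lncRNAs were looked at after their values were seen, and no test was attached.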
